A study of Caenorhabditis elegans with 2 samples.

Results

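This account covers the nuclear hormone receptor genes of the nematode Caenorhabditis elegans and the binding of FOS-1 at their promoters. The genes were chosen by a rule on their names, set with earlier results of these data known. The rule takes protein-coding genes of the WBcel235 annotation called nhr- and a number, apart from a pair of genes not analysed here. This gave 267 receptor genes of 19973 protein-coding genes on the 6 nuclear chromosomes. Binding was mapped by chromatin immunoprecipitation followed by sequencing (ChIP-seq) in whole L2 larvae, of mixed sex, in 2 biological replicates that form 1 group. The strain, OP304, is unc-119(ed3) III with the transgene wgIs304, which carries fos-1 fused to the green fluorescent protein eGFP, so both replicates share the unc-119 mutation and the extra fos-1. The labels name fos-1 as the antibody target, and whether untagged FOS-1 was precipitated as well cannot be told from them. No group without the transgene and no control library was analysed here, and whole animals do not show in which tissue a site was bound.

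Nuclear hormone receptors are transcription factors with a zinc-finger DNA-binding domain and, in most, a ligand-binding domain through which lipids and other small molecules can act. Nematodes have a much larger family than insects or mammals, most of it derived from an ancestor related to HNF4 and much of it in tandem groups on chromosome V, while a small set has clear counterparts across animals. FOS-1 is a basic leucine zipper protein of the Fos family. Fos proteins bind as dimers with Jun and related partners to the AP-1 site, and fos-1 is known in the worm for anchor cell invasion and for spermathecal function.

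A receptor was counted as having a promoter peak where the summit of a peak passing the irreproducible discovery rate (IDR) threshold lay between 1000 bp upstream and 250 bp downstream of any of its transcript starts. IDR measures how well the ranks of peaks agree between replicates, and the thresholded list held 7446 peaks from pooled data. A relaxed call is a call of the unthresholded list of the pooled replicates, unless a replicate's own list is named. Signal values are those of the authors' peak caller. They ran from 33.9 to 702 in this list and can be compared only within a list. Their unit is not given in the sources used here. Nor is the sequencing depth known. Intervals are 95% Wilson intervals over genes or peaks, or order-statistic intervals of a median, and they cover counting error only. With 1 group the design has no contrast to test, so the receptors are set beside all protein-coding genes as a description.

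FOS-1 peaks lay at the promoters of 96 of the 267 receptors, or 36.0% (30.4 to 41.9), against 23.4% of all protein-coding genes. The 2 other large families counted the same way had lower shares: 10 of 63 homeobox genes named ceh (15.9%) and 49 of 240 C-type lectin genes (20.4%). Among the receptors 88 had 1 promoter peak, 8 had 2 and 171 had none. The peaks were 103 in number, since a single summit lay by the starts of the divergent genes nhr-94 and nhr-152 and counted for both. Another 10 of the 103 peaks also lay in the window of a gene that is no receptor, or 9.71%, whereas 20.8% of the promoter peaks of all genes lay in the windows of 2 or more genes. The 9.71% leaves out the peak of nhr-94 and nhr-152, which was 0.971% of the receptor peaks. With that peak included, receptor peaks were still shared with a neighbour less often than promoter peaks at large by count. That difference was not tested.

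The 9 sequences that carry the next results are printed here as 101 bases centred on the summit, read along the strand of the receptor, from the RefSeq copy of the WBcel235 assembly (ce11). The first 5 are all the receptor peaks with an AP-1 site in capitals, TGANTCA with C or G at the N.
nhr-50, chrV:16000608-16000708, minus strand: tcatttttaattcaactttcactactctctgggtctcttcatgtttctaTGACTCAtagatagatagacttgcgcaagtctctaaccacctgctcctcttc
nhr-206, chrV:12091923-12092023, plus strand: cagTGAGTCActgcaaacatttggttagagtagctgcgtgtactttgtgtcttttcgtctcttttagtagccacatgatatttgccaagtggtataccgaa
nhr-207, chrV:12096015-12096115, plus strand: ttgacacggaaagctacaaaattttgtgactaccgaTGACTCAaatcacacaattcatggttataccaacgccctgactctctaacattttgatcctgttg
nhr-195, chrV:8972638-8972738, minus strand: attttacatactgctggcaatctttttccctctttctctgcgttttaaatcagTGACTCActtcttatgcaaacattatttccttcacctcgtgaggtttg
nhr-112, chrV:16724766-16724866, minus strand: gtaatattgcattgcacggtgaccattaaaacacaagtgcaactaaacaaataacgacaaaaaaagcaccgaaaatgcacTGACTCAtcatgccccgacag
The next 3 are all the receptor peaks with 2 copies of the extended GATA site TGATAAG, in capitals in either orientation.
nhr-291, chrV:15318745-15318845, plus strand: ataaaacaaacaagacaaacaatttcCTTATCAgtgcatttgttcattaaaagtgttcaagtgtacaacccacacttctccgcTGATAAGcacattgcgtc
nhr-247, chrV:15322825-15322925, plus strand: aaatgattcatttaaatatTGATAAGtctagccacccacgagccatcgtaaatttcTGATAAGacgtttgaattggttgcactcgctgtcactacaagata
nhr-80, chrIII:15393-15493, minus strand: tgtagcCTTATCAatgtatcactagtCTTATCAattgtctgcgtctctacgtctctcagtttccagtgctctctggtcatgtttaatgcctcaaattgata
The last is the strongest receptor peak with the repeat GAGAGAG, here as overlapping copies on the other strand. A GACGCAGA site, also on the other strand, and an extended GATA site follow it, and all are in capitals.
nhr-119, chrII:2800981-2801081, minus strand: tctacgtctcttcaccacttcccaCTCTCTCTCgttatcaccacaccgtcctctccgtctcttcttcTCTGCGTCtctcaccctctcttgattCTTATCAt
Of these genes nhr-112, nhr-195, nhr-207 and nhr-247 are named because of their sites, chosen after their values were seen.

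The strongest receptor peak belonged to nhr-50 on chromosome V, whose summit stood 27 bp upstream of its start. Its signal was 263.1 in the pooled list, rank 57 of 7446, with 185 in replicate 1 and 79.5 in replicate 2. The AP-1 site printed above was centred 2 bp from that summit. The second, nhr-291, had a signal of 254 (rank 69), with 181.8 in replicate 1 and 70.7 in replicate 2, and its summit lay between its 2 extended GATA sites, centred 21 bp upstream and 36 bp downstream of it. Both genes stood apart from the rest in replicate 1, where the next receptor signal was 112.5. In replicate 2 the next was close to them, at 66.1. In the pooled list the next receptor was at 165. That receptor is nhr-80, an HNF4-related regulator of fatty acid desaturation, which had 2 peaks near the left end of chromosome III. The first, printed above, had 97.4 in replicate 1 and 66.1 in replicate 2 and lay 574 bp upstream of a start, and the second had a pooled signal of 100.9. Both nhr-80 summits also lay in the window of the gene H10E21.1, so they cannot be given to nhr-80 alone.

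The next receptors in order were nhr-119 at 153.6, nhr-58 at 148.1, nhr-55 at 147.9 and nhr-178 at 146.5. These 4 had 92.8 to 112.5 in replicate 1 and 33.1 to 55.3 in replicate 2, and all 4 were called in both replicates. Then followed nhr-49 at 133.1, nhr-1 at 131.8, nhr-256 at 123.9, nhr-68 at 120.1, nhr-206 at 115.8 and nhr-177 at 115.7. The remaining 7 of the 20 strongest, nhr-135, nhr-170, nhr-69, nhr-232, nhr-99, nhr-48 and nhr-85, lay between 101.6 and 108.7. No receptor reached the strongest signals of the whole list.

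The median signal of receptor peaks was near that of promoter peaks at large. The strongest promoter peak of a receptor had a median signal of 65.0 (56.6 to 81.4, n = 96), against 67.6 (66.4 to 69.4, n = 4681) over all genes with a promoter peak. Receptor values ran from 34.6 to 263.1, with quartiles of 45.0 and 93.7. The IDR list was also divided into 5 equal groups by signal. The group of highest signal held 17 receptor peaks (16.5%), against 20.6% of all promoter peaks. The next held 27 (26.2%), against 20.5%, the middle group 19 (18.45%), against 20.35%, and the fourth 17 (16.5%), against 19.8%. The group of lowest signal held 23 (22.3%), against 18.7%. Receptor peaks thus showed no steady shift towards high or low signal.

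**Figure D1:**
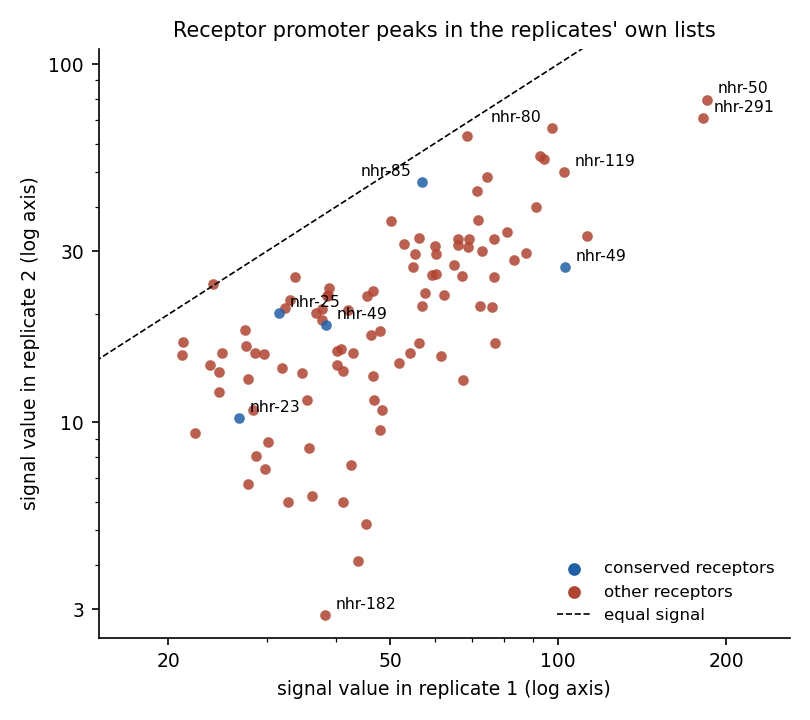
Signal value of each receptor promoter peak in the list of replicate 1 (x axis, log scale) and replicate 2 (y axis, log scale), for the 101 of 103 peaks with a call in both; blue points are conserved receptors and the dashed line marks equal signal. Nearly all points lie below the line (median ratio 2.33), nhr-50 and nhr-291 stand apart along the x axis, and nhr-182 has the highest ratio, 13.2.

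The replicates placed most of these peaks alike. Of the 103 receptor peaks, 82 or 79.6% (70.8 to 86.3) overlapped by at least 1 bp the strongest 7446 calls of both replicates, and of all promoter peaks 80.6% did. Replicate 1 alone held 18 of the others and replicate 2 alone held 2, with 1 in neither. Signal was higher in replicate 1 than in replicate 2 by a median factor of 2.33 at receptor peaks (range 0.989 to 13.2, n = 101) and 2.19 at all promoter peaks. The lists were not normalized to each other, so this factor cannot be read as a difference in binding. The weakest support was at nhr-182, with 38.1 in replicate 1 and 2.89 in replicate 2, and at nhr-176 and nhr-273, which had no call in replicate 2. nhr-94, nhr-152, nhr-182 and nhr-273 were chosen for mention after their values were seen. Counted from each replicate alone, 98 receptors had a strong promoter call in replicate 1 and 84 in replicate 2. In both replicates together 77 receptors had one, or 28.8% (23.7 to 34.5), against 19.3% of all genes.

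A set of 6 conserved receptors, which are not all of those with relatives in other animals, split into 4 with a promoter peak and 2 without, or 66.7% (30 to 90.3), against 92 of the other 261 receptors, or 35.2% (29.7 to 41.2). nhr-49, an HNF4-related regulator of fatty acid breakdown and the fasting response, had the strongest of these peaks. Its summit, 427 bp upstream of a start, had a signal of 133.1 (rank 810), with 103 in replicate 1 and 27.1 in replicate 2, and a second peak reached 54.1. nhr-85, the counterpart of the Rev-Erb receptors and part of the larval timing system, had a pooled signal of 101.6, with 56.9 in replicate 1 and 46.9 in replicate 2. That summit lay within the gene, in an intron, 923 bp upstream of an internal start.

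nhr-25 and nhr-23 are both needed for moulting, and their peaks were weak. nhr-25, the counterpart of FTZ-F1 and SF-1, had 52.8 in the pooled list, 31.5 in replicate 1 and 20.2 in replicate 2, with the summit 184 bp upstream of a start. nhr-23, the counterpart of the ROR receptors, had 34.8 (rank 7295 of 7446), with 26.8 in replicate 1 and 10.3 in replicate 2, so that its peak stood near the threshold of the list. nhr-6, the counterpart of the NR4A receptors with a part in spermatheca development, and nhr-91, related to GCNF, had no IDR peak. Their windows held relaxed pooled calls of 12.01 and 17.4, below the lowest signal in the IDR list, with a call in replicate 1 and none in replicate 2.

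With all relaxed pooled calls, every one of the 6 conserved receptors had a promoter call, as did 57.9% of the others, while 46.6% of all protein-coding genes did. The conserved receptors also had more annotated starts, with a median of 3.5 against 1 for the others, and hence wider windows. With a single start per gene, 3 of the 6 had a peak. The median signal of the 4 peaks was 77.2, in a range of 34.8 to 133.1 that spans much of the range of the other receptors.

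Receptors with a reported role were followed as a list of 21 genes beyond the conserved set, and 14 of them had a promoter peak. That is 66.7% (45.4 to 82.8), against 36.0% of all receptors and 23.4% of all genes. Such genes are better annotated: 13 of the 21 had 2 or more starts. With a single start per gene 10 of the 21 had a peak (47.6%), against 32.6% of all receptors and 21.7% of all genes. Over the whole family, receptors with 2 or more starts had a peak in 49 of 94 cases (52.1%), against 34.3% of all genes with as many. Receptors with 1 start had one in 47 of 173 cases (27.2%), against 19.6% of all such genes. The share at receptors was thus above that of all genes at either number of starts, and the number of starts moved with it.

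Among receptors reported in lipid and propionate metabolism, nhr-80 is described above. nhr-66, a partner of nhr-49 in sphingolipid and lipid remodelling genes, had 2 weak peaks with signals of 45.8 and 35.6, and nhr-13, another binding partner of nhr-49, had 40.6. nhr-68, which with nhr-10 drives the propionate shunt used when vitamin B12 is scarce, had peaks of 120.1 and 36.97. The first had 91.3 in replicate 1 and 39.9 in replicate 2. Its summit also lay in the window of the gene H12C20.7, so it cannot be given to nhr-68 alone. nhr-10 itself had none and a relaxed pooled call of 5.82. nhr-114, which protects fertility on some bacterial diets, had no IDR peak and a relaxed call of 17.4. nhr-76, linked to serotonin-driven fat loss, had a relaxed call of 13.04.

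Receptors reported in stress, xenobiotic and dietary responses varied likewise. nhr-57, a target of the hypoxia factor HIF-1, had 91.8, with 64.9 in replicate 1 and 27.4 in replicate 2. nhr-86, which acts in intestinal immunity, had 49.4, and nhr-62, needed for the long life of diet-restricted worms, had 59.7 at a summit 987 bp upstream of an internal start. nhr-176, which acts in the breakdown of the anthelmintic thiabendazole, had 37.8 and no call in replicate 2. nhr-14, reported in iron uptake and immunity, had no IDR peak in its window and a relaxed call there of 24.4.

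The other receptors of this list were nhr-31, nhr-40, nhr-41, nhr-48, nhr-64 and nhr-69 with a peak and nhr-2, nhr-60 and nhr-111 without. nhr-31, needed for growth of the excretory cell and its proton pump genes, had 2 peaks at 97.4 and 70.1, both called in both replicates. nhr-48, of the group that includes the vitamin D and xenobiotic receptors, had 102, and nhr-69 had 106.8. nhr-64 had 68.5, nhr-40, which acts in muscle development, had 48.4, and nhr-41, related to the TR2 and TR4 receptors, had 42.5. Neither nhr-2 nor nhr-111 had a call in the relaxed pooled list or in either replicate.

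The 8 receptors with 2 promoter peaks were nhr-80, nhr-49, nhr-68, nhr-232, nhr-31, nhr-34, nhr-66 and nhr-43. In the first 5 the stronger peak was above the receptor median, at 97.4 to 165. In nhr-34 it was 55.03 and in nhr-43 43.95, and in each of these the second was within 10 of it on the signal scale. No receptor had 3 peaks, and 45 genes of the whole genome had that number.

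**Figure D2:**
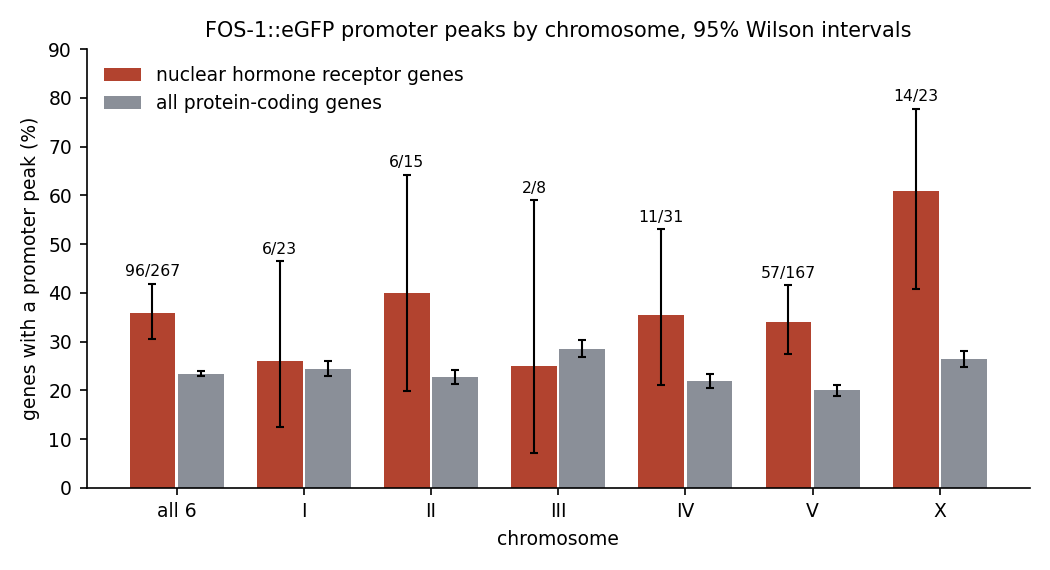
Percentage of genes with an IDR summit in the promoter window (y axis) on all 6 chromosomes and on each (x axis), for receptor genes (red) and all protein-coding genes (grey); error bars are 95% Wilson intervals and the fractions above the red bars are receptors with a peak over receptors. On chromosome X 14 of 23 receptors had a peak, and the intervals on I, II and III are wide.

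By chromosome, receptors exceeded all genes on 5 of 6. Chromosome V holds 167 of the 267 receptors, and 57 of them had a peak, or 34.1% (27.4 to 41.6), against 20% of all genes of that chromosome. The share was highest on X, with 14 of 23 receptors or 60.9% (40.8 to 77.8), against 26.5% of all X genes. On IV it was 11 of 31 (35.5%), against 21.9%. With a single start per gene the IV share was 19.4%, with no such share of all IV genes given here. On II, with all starts, it was 6 of 15 (40%), against 22.7%. On I it was 6 of 23 (26.1%), against 24.4%. On III it was 2 of 8 (25%), against 28.6%, and the intervals on I, II, III and IV include the share of all genes of the same chromosome.

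The share on X was above that of all X genes at either number of starts: 6 of 11 X receptors with 1 start had a peak (54.5%), against 22.8% of X genes with 1 start, and 8 of 12 with more starts did (66.7%), against 37.1%. Receptor peaks on X were of ordinary strength, with a median signal of 57.2 (n = 14), against 71.8 for all X genes with a peak. The strongest there was nhr-1 at 131.8, with 68.6 in replicate 1 and 63.0 in replicate 2, followed by nhr-48 at 102. On autosomes both parts showed the same order. Receptors in the end parts, the outer of 3 equal lengths, had a peak in 54 of 178 cases (30.3%), against 20.2% of all genes there, and receptors in the centre in 28 of 66 (42.4%), against 27.4%. On V the values were 41 of 126 at the ends (32.5%), against 16.99%, and 16 of 41 in the centre (39.0%), against 25.3%.

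Receptor genes are often neighbours. With starts no more than 20 kb apart and at least 3 receptors, 130 of the 267 fell into 25 clusters of 3 to 12 genes, 17 of them on chromosome V. Clustered receptors had a peak in 39 of 130 cases, or 30% (22.8 to 38.4), and unclustered ones in 57 of 137, or 41.6% (33.7 to 49.98). On V the shares were alike, at 35 of 102 clustered (34.3%) and 22 of 65 unclustered (33.8%). Outside V 4 of 28 clustered receptors had a peak (14.3%), against 35 of 72 unclustered (48.6%). The median signal was 66.2 in clustered and 63.8 in unclustered receptors with a peak.

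The number of starts moved with this difference too. Among receptors with 1 start, 26 of 91 clustered (28.6%) and 21 of 82 unclustered (25.6%) had a peak. Among those with 2 or more starts, 13 of 39 clustered (33.3%) and 36 of 55 unclustered (65.5%) had one. With a window of 500 bp upstream the shares were 28.5% clustered and 30.7% unclustered. Clustered receptors also had less sequence upstream, with a median of 892.5 bp to the next gene against 2451 bp. Repeated sequence was somewhat more common there: 17.7% of clustered and 10.2% of unclustered receptors had windows in which fewer than 90% of 31-base words occur once in the genome. Only 6 of 37 receptors with such windows had a peak (16.2%), against 11.5% of all genes of that kind, while 39.1% of the other 230 receptors did, against 25.6% of all genes. Limited to windows at or above 90%, the shares were 36 of 107 clustered (33.6%) and 54 of 123 unclustered (43.9%). The part of starts, upstream space and repeats in the difference was not tested.

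**Figure D3:**
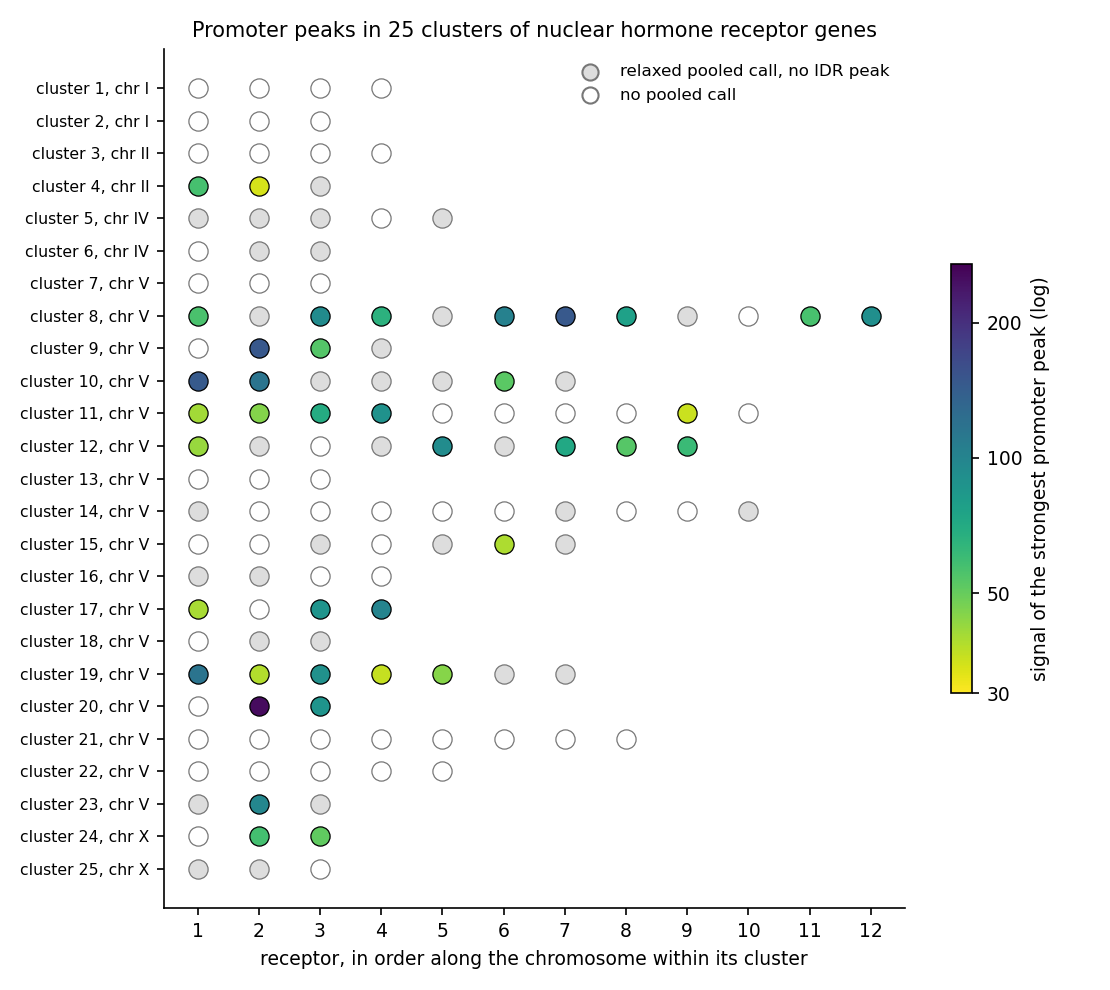
Each row is 1 of the 25 clusters and each circle a receptor, placed in its order along the chromosome (x axis); colour gives the signal of its strongest promoter peak on a log scale, grey circles have only a relaxed call of the pooled list and white circles no pooled call. Coloured circles gather in 12 clusters, with 8 of 12 in cluster 8, while 13 clusters have no coloured circle.

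Peaks gathered in some clusters and were missing from others. Of the 25 clusters, 12 with 72 receptors had at least 1 receptor peak, 7 of them at most of their genes, and 13 with 58 receptors had none. The richest was a group of 12 receptors in 45.9 kb at the left end of V, cluster 8 in the cluster plot, where 8 had a peak. Its strongest were nhr-55 at 147.9, nhr-99 at 104 and nhr-203 at 94.7. These had 92.8, 76.8 and 67.3 in replicate 1 and 55.3, 25.5 and 25.6 in replicate 2. Each of the 8 had its own peak, and none of the 3 other protein-coding genes in the span had one.

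A tandem group of 7 receptors in 17.3 kb of chromosome V, cluster 19, shows the peaks gene by gene. Its first 5 genes, nhr-206, nhr-208, nhr-207, nhr-209 and nhr-154, each had a peak of its own, chosen for mention after their values were seen. Their signals were 115.8, 38.7, 89.9, 36.4 and 44.6 in that order. In replicate 1 they were 87.49, 30.15, 76.91, 28.7 and 35.79. The values in replicate 2 were 29.72, 8.795, 16.61, 8.051 and 8.492. At nhr-208, nhr-209 and nhr-154 the replicate 2 call was not among the strongest calls used above for replicate support. By that rule these peaks were held by replicate 1 alone. The summits of the first 4 stood 33, 37, 81 and 55 bp upstream of the starts, and that of nhr-154 stood 301 bp upstream. High and low signals alternated along the first 4 genes. The 2 high ones, nhr-206 and nhr-207, were those with an AP-1 site, and nhr-208, nhr-209 and nhr-154 had none. The site was centred 44 bp upstream of the summit at nhr-206, near the edge of the searched window, and 11 bp upstream at nhr-207. The last 2 genes of the group had relaxed calls of 23.3 and 29.8.

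Another pair of neighbours, nhr-291 and nhr-247 in cluster 20, shared the second pattern of sites. Both had 2 extended GATA sites within 50 bp of the summit, as printed above, and only nhr-80 among the other receptor peaks did. These 3 made up 2.91% of receptor peaks, near the 2.75% of all promoter peaks with 2 or more such sites. The signals were 254 and 86.5, and the window of nhr-247 is only 47.1% unique in 31-base words. The third receptor of the cluster, nhr-246, had no pooled call and a relaxed call of 15.7 in replicate 1.

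Large clusters without a peak stood beside these on the same chromosome. Cluster 14, with 10 receptors in 64.02 kb of V, had no receptor peak, only 3 relaxed calls with a highest signal of 17.5, and 1 of its 8 other genes had a peak. The median of its windows was 100% unique 31-base words, and that of nhr-185 was the lowest at 71.1%. Cluster 21, with 8 receptors, had no call of the pooled list in any window, and its median was 97.8%. The list of replicate 2 alone held weak calls at 3 of its genes, nhr-197, nhr-198 and nhr-199, with signals of 6.13, 7.04 and 6.77, named after their values were seen. In 7 clusters with 30 receptors, cluster 21 among them, no window held a relaxed call of the pooled list, and some of these windows held weak calls of replicate 2 alone. These clusters were picked by that lack, so their count cannot be set beside the share of all genes. In the 13 clusters picked for having no IDR peak, 15 of 58 receptors had a relaxed pooled call. Over all 130 clustered receptors 56.2% had one, against 46.6% of all genes. In cluster 1 on chromosome I the median was only 13.7%, and the part of reads that cannot be placed in such sequence was not tested. The other genes lying within cluster spans had a peak in 7 of 28 cases where the receptors had one and in 2 of 44 cases where they had none. Of all protein-coding genes 23.4% had one, near the first of these shares, and the difference between the 2 was not tested.

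**Figure D4:**
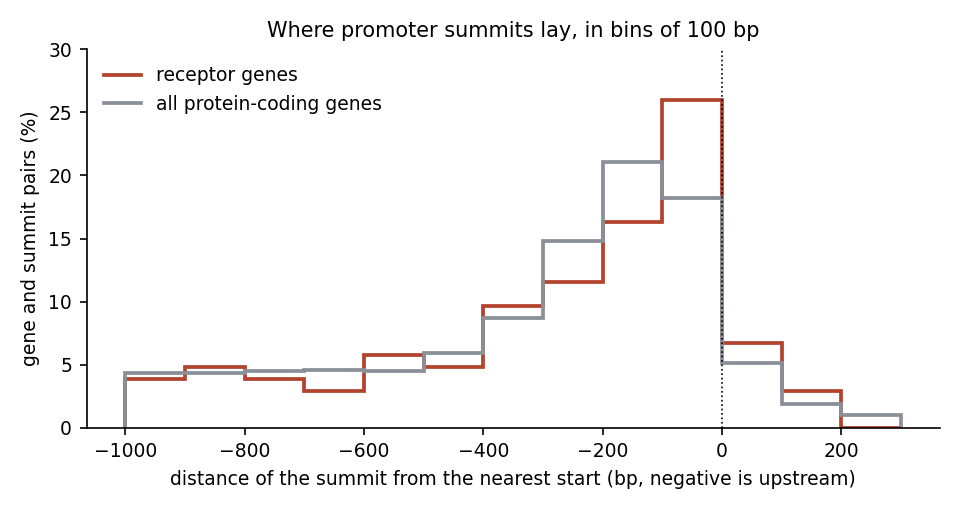
Percentage of gene and summit pairs (y axis) in bins of 100 bp of the distance between the summit and the nearest start of the gene (x axis, negative is upstream), for receptors (red, 104 pairs) and all protein-coding genes (grey, 5151 pairs). The receptors' highest bin is the 100 bp next to the start, at 25.96%, and that of all genes is the bin before it, at 21.0%.

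Receptor summits lay close to the start. The median distance was -185.5 bp (-275 to -122, n = 104), against -213 bp (-221 to -203) for all genes, where negative values are upstream. Within 100 bp of a start lay 34 of the 104 (32.7%), against 23.4% of pairs of all genes. Upstream of the start lay 89.4%, against 91.1%. By annotation 79 of the 104 summits were outside the gene, 12 were in a UTR exon (11.5%, against 6.04% for all genes), 11 in an intron and 2 in a coding exon. The next gene upstream was farther from receptors, at a median of 1590 bp against 937 bp. All genes were also divided into 4 groups by that distance, and the receptors' share with a peak was higher in each. From the closest group to the farthest it was 30.6% against 20.7%, 38.9% against 29.5%, 30.6% against 23.3% and 43.04% against 20.2%. Only in the farthest group did the receptors' interval (32.7 to 54.03) leave out the share of all genes.

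**Figure D5:**
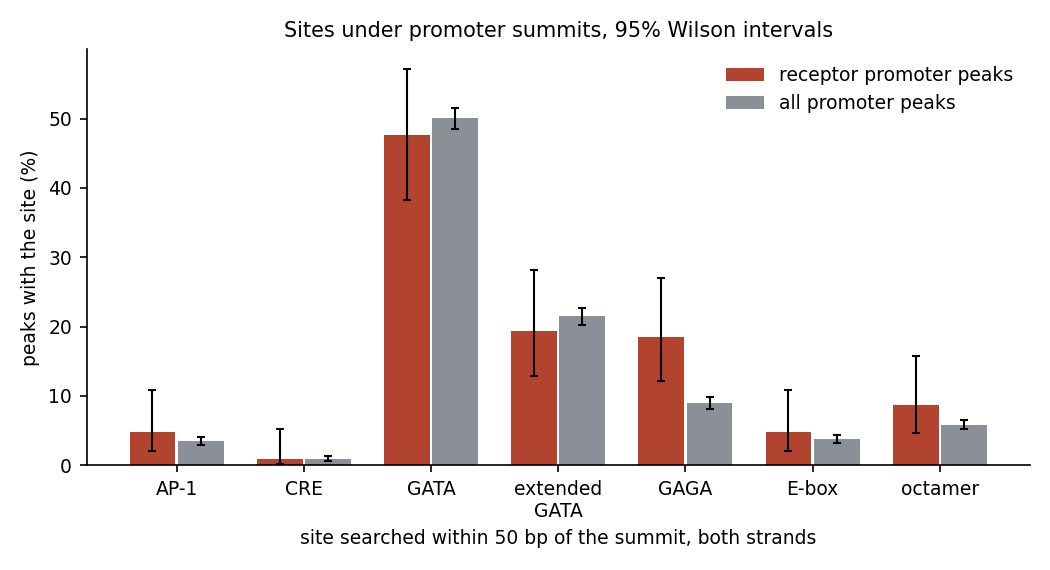
Percentage of peaks with each of 7 sites within 50 bp of the summit (y axis) for the 103 receptor promoter peaks (red) and all 4222 promoter peaks (grey); error bars are 95% Wilson intervals and octamer stands for GACGCAGA. GATA is the most common site in both, and the GAGA repeat stands at 18.4% of receptor peaks against 8.93%.

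Under the summits GATA sites were common and AP-1 sites rare, as in promoter peaks at large. All sites were searched on both strands within 50 bp of the summit. The GATA site (GATA with A or T before it and A or G after it) was found in 49 of 103 receptor peaks, or 47.6% (38.2 to 57.1), against 50.02% of all promoter peaks and 52.9% of all IDR peaks. The extended GATA site TGATAAG, which is one form of the GATA site and counts in both, was found in 20 (19.4%), against 21.5% and 22.8%. AP-1 was found in the 5 peaks printed above, or 4.85% (2.09 to 10.9), against 3.51% and 3.55%. The CRE site TGACGTCA was found in 1 (0.971%), against 0.947% of promoter peaks, and the E-box CACGTG in 5 (4.85%), against 3.81%. The site GACGCAGA was found in 9 (8.74%, 4.67 to 15.8), against 5.85% of promoter peaks and 5.33% of all IDR peaks.

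The repeat GAGAGAG was more frequent by count in receptor peaks. It was found in 19 receptor peaks, or 18.4% (12.1 to 27.0), against 8.93% of all promoter peaks and 9.83% of all IDR peaks, and 10 of the 19 had 2 or more copies, which can overlap. Within 100 bp of the summit the gap was smaller, at 21.4% against 14.3% of all promoter peaks. Unclustered receptors held 15 of the 19, in 23.4% of their 64 peaks, and clustered ones 4 in 39 (10.3%). Among the 3723 peaks of highest signal the repeat was found in 10 of 50 receptor peaks (20%), against 10.4% of all. None of the 7 sites was found in 31 receptor peaks (30.1%), against 37.4% of promoter peaks. A match of letters describes the window and is no evidence that a factor bound there.

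Genes that work with these receptors were counted in 5 lists of 30 genes in all, and 9 had a promoter peak. None of the 5 receptor genes with other names, daf-12, fax-1, odr-7, sex-1 and unc-55, had one, against the 36.0% above. Among 7 genes for cofactors and SUMO enzymes 4 had one. These were cbp-1, a histone acetyltransferase and coactivator, at 179, din-1, the corepressor of the dauer receptor, at 128.2, the SUMO-conjugating enzyme ubc-9 at 50.6 and the SUMO gene smo-1 at 39.7. mdt-15, the mediator subunit that works with nhr-49, had none. Of 6 genes reported to depend on nhr-49, the desaturase gene fat-6 (81.0) and the glyoxylate cycle gene icl-1 (44.4) had a peak, and fat-5, fat-7, acs-2 and fmo-2 had none. Of 5 propionate shunt genes hphd-1 (76.6), alh-8 (71.7) and hach-1 (47.98) had one. Of 7 moulting genes linked to nhr-23 and nhr-25 none had one. The intervals of these small lists are wide, from 23.1 to 88.2% for the propionate shunt genes and from 0 to 35.4% for the moulting genes, and all but that of the cofactors (25.05 to 84.2%) include the 23.4% of all genes.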

How the data were processed

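ChIP-seq of FOS-1::eGFP was measured in 2 biological replicates of 1 group. The authors deposited peak lists on ce11 and ce10, of which the ce11 lists were used: an IDR-thresholded list of 7446 peaks, a relaxed list of the pooled replicates (28259 calls) and a relaxed list per replicate (29339 and 28938), called against a control per the file headers of the manifests. Each deposited call has a signal value, a -log10 q-value as deposited (4.25 for all 7446 IDR peaks, a ceiling, which left signal for the ranking) and, as deposited, the offset of its summit. For the aligner and caller, names and versions were not given in the sources used here, and depth is unknown. Signal values are not normalized between lists.

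Computed here, with Python 3.11.15, numpy 2.4.6, scipy 1.17.1 and matplotlib 3.10.9: the promoter windows of every protein-coding transcript start (Ensembl release 115), the counts, intervals, clusters, distances and sites. The strongest 7446 calls stood for each replicate. The scripts were tested on simulated data. The members and lists were chosen with earlier results of these data known, and TGATAAG and GACGCAGA came from a ranking on these peaks. Splits by number of starts and by repeated sequence were chosen after seeing the data. Named genes are the 6 conserved receptors, the 20 strongest, the 8 with most peaks, the 3 strongest of the cluster richest in peaks, the 21 with a reported role and members of the 5 lists; others are marked. Alternatives were other peak thresholds, single replicates, windows, starts, overlaps, cluster rules and site margins.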

Additional observations from a re-analysis of the deposited data

How the results depend on the processing

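Of 82 alternative values of the main results 62 stayed within the spread of the value reported. The 3723 peaks of highest signal and the full relaxed pooled list moved the counts. The 3723 peaks gave 48 receptors with a promoter peak (18.0%, against 12.6% of all genes), a median signal of 94.04, shares of 18.6% on V and 21.7% on X, 15.4% inside and 20.4% outside clusters, and 2 conserved receptors. The relaxed calls gave 157 receptors (58.8%, against 46.6%), a median signal of 40.6, 56.9% on V and 82.6% on X, and 56.2% inside and 61.3% outside clusters. Shares of all V and all X genes are not given here for either list, so receptors cannot be set beside them there. Leaving out a replicate, the median signal was 21.1 to 46.6 for all receptors and 27.1 to 44.2 for the conserved ones, in lists of another scale, while the share of receptors was 31.5% to 36.7%, against 22.6% to 23.2% of all genes. A window of 500 bp upstream gave 28.5% inside and 30.7% outside clusters, and clusters with starts within 10 kb 33.6% inside and 37.4% outside. A window of 2000 bp gave a median distance of -292 bp. Within 100 bp of the summit GATA was found in 68.9% of receptor peaks (63.1% of all promoter peaks), extended GATA in 28.2% (28%), the E-box in 12.6% (6.06%) and GACGCAGA in 14.6% (8.69%). The receptors' share stood above that of all genes under every setting run. The cause of these moves was not tested beyond the construction of each alternative. No paired analysis was possible because there is 1 group.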

Other observations

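Receptor genes also held IDR peaks inside the gene, outside their promoter windows. There were 36 such peaks in 25 receptors, of which 32 lay in an intron, 3 in a UTR exon and 1 in a coding exon. The same count was not made over all protein-coding genes, so it cannot be told whether this is many. The peak in a UTR exon of nhr-109 is also the promoter peak of nhr-273, already counted above. The strongest were in introns of nhr-3 (signal 194.4), nhr-137 (184) and nhr-19 (178.5), named after their values were seen, and these were stronger than all promoter peaks of receptors apart from those of nhr-50 and nhr-291. Of the 25 receptors, 6 had no promoter peak. nhr-19 had 3 intronic peaks and nhr-27, a long gene on chromosome X, had 6, the strongest of them at 146.7. The other genes named here outside the rule were also chosen after their values were seen. nhr-14 had an intronic peak of 78.0 at 865 bp from its nearest start, and nhr-76 one of 37.2. nhr-120 had one of 120.4, and nhr-146 had one of 54.1 in a UTR exon. nhr-31 had 2 in its introns, at 76.04 and 72.3, beside its 2 promoter peaks.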
